A study of Mus musculus with 11 samples.

Results

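Motile cilium genes were read across the cells of the mouse brain after sham surgery or middle cerebral artery occlusion and reperfusion (MCAO/R), in wild-type (WT) mice and in mice without Lrg1, which encodes a secreted leucine-rich glycoprotein. Members were chosen by symbol. They were the genes starting with Dnah, Dnai, Dnaaf, Cfap, Rsph, Tekt or Drc, each followed by a digit, together with Foxj1, Tmem212, Ccdc153 and Dynlrb2. The rule found 74 of 32285 genes, of which 33 were Cfap, 16 Dnah, 8 Rsph, 5 Dnaaf, 5 Tekt, 3 Drc and 4 named one by one, and 0 started with Dnai and a digit. Single-cell 3′ libraries of the right brain were made from 11 mice, 1 library per mouse, as 3 sham + WT (replicates 1, 2 and 3), 3 sham + Lrg1-/- (replicates 1, 2 and 5), 2 MCAO/R + WT (replicates 1 and 2) and 3 MCAO/R + Lrg1-/- (replicates 1, 2 and 5). Per the study's methods, the WT mice were male C57BL/6 of no stated substrain and younger than the Lrg1-/- mice, whose sex is not given. The Lrg1-/- mice carried a conventional deletion in every cell and came from another supplier. They were backcrossed to C57BL/6N, although C57BL/6J is also named for the strain. Genotype thus cannot be told apart from age and source, or from sex and substrain where these differed. Labels give neither the age nor the time of reperfusion of single libraries.

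Motile cilia are beating extensions of the cell surface, and in the brain they are carried by the ependymal cells that line the ventricles, where they move the cerebrospinal fluid. Each cilium is built on an axoneme of outer microtubule doublets around a central pair. Dynein heavy chains (Dnah) are the motors of the outer and inner arms, Dnaaf proteins assemble these arms in the cytoplasm, radial spoke heads (Rsph) pass signals from the central pair to the dyneins, Drc proteins form the nexin-dynein regulatory complex that links neighbouring doublets, tektins (Tekt) are filaments inside the doublet wall, and the Cfap symbol covers cilia and flagella associated proteins of many positions. Foxj1 is the forkhead transcription factor that switches on the motile cilium programme.

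Retained cells had over 500 genes, over 1000 UMIs (unique molecular identifiers, 1 per captured transcript) and under 25% mitochondrial UMIs. Libraries held 5650 to 36858 barcodes and 37159497 to 171813031 UMIs, and Lrg1 had 192 to 17868 UMIs in WT libraries and 0 in Lrg1-/- libraries, except for 1 UMI in MCAO/R + Lrg1-/- replicate 5. Cells were clustered without the members or a list of 86 other cilium genes, and a cluster was called by the type whose markers it held. The cluster called ependymal-like had 1733 cells, held all 12 of its markers, among them Rarres2, Meig1 and Ak7, and had members among its leading genes (Cfap299, Tmem212 and Dnah12 came first). The cluster called choroid plexus-like, named from 10 markers with Ttr and Htr2c leading, had 10586 cells. RNA of other cells differed by genotype. The summed level of 6 red blood cell markers in ependymal-like cells was 54.8 to 91.8 UMIs per 1000000 UMIs (CPM, counts per 1000000) in WT libraries and 2339 to 68232 in Lrg1-/- libraries, and that of 10 choroid plexus markers was 393 to 4798 in WT and 4879 to 22345 in Lrg1-/- libraries. A further cluster of 1223 cells was led by Fam183b, Tmem212 and Ccdc153 and had a median of 2657 UMIs per cell. A rule set after the clusters were seen left it unnamed for its ependymal marker score. This score, the mean log2 fold of the markers over all other cells, was 2.17, against 4.57 in the ependymal-like cluster. Cells with weaker ependymal markers are thus outside the main comparisons. The cluster is called the low-UMI cluster below, since ependymal-like cells had a median of 10185, but UMIs did not decide its naming. Relative to the median of their library its cells stood at 0.821, ependymal-like cells at 1.64 and choroid plexus-like cells at 0.847. In MCAO/R + Lrg1-/- replicate 1 its 23 cells had a median of 8947 UMIs, where all retained cells had 3533. Of the 1223 cells 1010 came from MCAO/R + Lrg1-/- replicate 5, and counts of called members, shares and summed levels with the cluster added are given where they differ. Other clusters were also left unnamed, the largest with 14558, 7712 and 6119 cells, the last led by Spp1, Cd72 and Ccl12. The named types, microglia-like and endothelial-like cells among them, thus cover only part of the retained cells.

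The members were foremost genes of ependymal-like cells. Their summed level there was 17474 ± 3871 CPM (SD, n = 11 libraries), it was 1845 ± 317 (n = 11) in choroid plexus-like cells and 605 ± 177 (n = 11) in astrocyte-like cells, and means of 142 to 527 in the other 11 of 14 types. Ependymal-like cells held 44.5% of the 851725 member UMIs in retained cells, and the more numerous choroid plexus-like cells held 16.2%. Every ependymal-like library lay above every library of any other type, with 11204 CPM as the lowest, against 2404 as the highest choroid plexus-like value. Choroid plexus-like libraries, from 1254 upward, all lay above the highest astrocyte-like library, at 985. Below these, neighbouring types overlapped, from pericyte-like cells (469 to 674) down to macrophage-like cells (192 to 306). Cell types were compared as a description, since clusters come from the same cells. The ependymal-like type was also named from markers of ciliated ependymal cells, so that a high level of the members there is not independent of the naming.

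**Figure D1:**
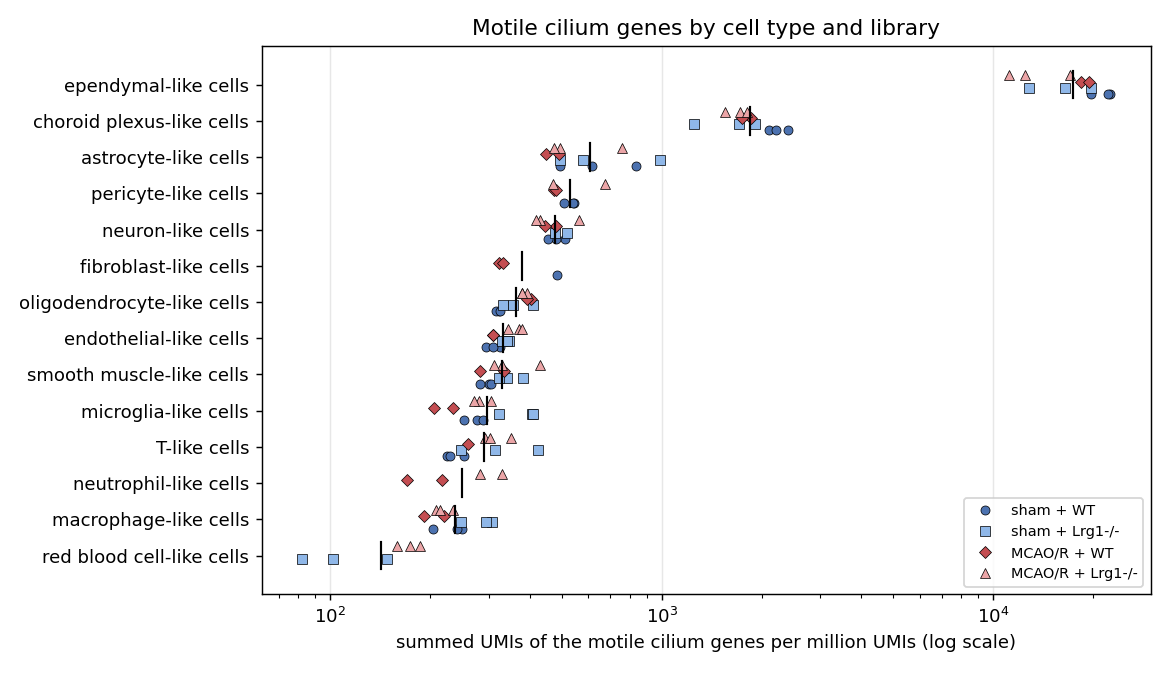
Summed UMIs of the 74 motile cilium genes as CPM (log axis) in each cell type, with 1 point per library of at least 20 cells, shaped and coloured by group, and a black bar at the mean over libraries. Ependymal-like libraries lay between 11204 and 22543 and choroid plexus-like libraries between 1254 and 2404, above every other type.

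Of the 74 members, 68 had their highest mean level in ependymal-like cells. The level there exceeded that of the next type by a median of 10.04-fold over these 68 genes, and of the 74 members 59 were over 2-fold, 35 over 10-fold and 3 over 100-fold above the next type. The other 6 were highest elsewhere. Rsph6a was highest in pericyte-like, Dnah2os in endothelial-like, Cfap97d1 in fibroblast-like, Dnah17 in neuron-like, Tekt5 in choroid plexus-like and Dnah8 in T-like cells, and these were the 6 members that did not pass the filter on low counts in ependymal-like cells. Cfap36, Cfap20 and Cfap298 had the highest levels of all members in oligodendrocyte-like cells, and Cfap20, Cfap74 and Cfap36 in microglia-like cells. In choroid plexus-like cells Cfap36, Rsph9 and Cfap298 came first.

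Shares of cells with a UMI were taken from cells with a median of 10185 UMIs in the ependymal-like, 4111.5 in the choroid plexus-like and 7986 and 7445 in the 2 endothelial-like clusters, the last of which stand for cells without motile cilia. A Tmem212 UMI was found in 93.2% of ependymal-like cells (87.9 to 99.0% over libraries), in 6.50% of choroid plexus-like and in 3.97% of endothelial-like cells. For Ccdc153 the shares were 85.2%, 5.25% and 2.55%. Dynlrb2, a light chain of the roadblock family used by axonemal and cytoplasmic dyneins, had a UMI in 76.6% of ependymal-like, 37.0% of choroid plexus-like and 2.35% of endothelial-like cells. Foxj1 had one in 74.8%, 20.7% and 2.22%, and Rsph1 in 80.0%, 43.0% and 3.09%. Dnah12, an inner arm heavy chain, had a UMI in 87.7% of ependymal-like cells, but in only 127 of 10586 choroid plexus-like cells (1.2%). Endothelial-like cells, which held more UMIs per cell, had 2.26%. Its mean level over libraries was 2.28 CPM in choroid plexus-like and 3.27 CPM in endothelial-like cells, and the choroid plexus-like value is read as background. With each cell thinned to 1000 UMIs, which left out no cell, the mean share over libraries was 68.0% for Tmem212 in ependymal-like, 1.14% in choroid plexus-like and 0.571% in endothelial-like cells. It was 36.1%, 9.16% and 0.327% for Dynlrb2, 22.5%, 3.62% and 0.364% for Foxj1 and 35.9%, 12.8% and 0.494% for Rsph1. Thus Dynlrb2, Foxj1 and Rsph1 had UMIs in choroid plexus-like cells well over the endothelial-like share, whereas Tmem212 and Ccdc153 (52.2%, 0.811% and 0.399%) were near it.

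The regions upstream of members are shown because these genes shared a cell type. RFX factors, which act with Foxj1 on cilium genes, bind the X-box, whose conserved arm is GTTGCC. This letter run, read on both strands (GGCAAC on the other) in the 250 bases before the RefSeq transcription start (GRCm38.p6), was present in 19 of 60 members with a listed start (31.7%) and in 11.8% of 27025 genes. The run GTAAACA, a form of the forkhead core that reads TGTTTAC when taken from the other strand, was present in 4 of these 60 (6.67%) and in 3.54% of all genes. Other forms of the forkhead core were not searched, so a window without this run may still hold one. The windows of 4 members are shown, 3 with the X-box arm, which is in capitals, and that of Tmem212, which had neither run. They are chr8:116504765-116505014 (+) for Dynlrb2, chr9:44240427-44240676 (+) for Ccdc153, chr11:72361883-72362132 (-) for Tekt1 and chr3:27896369-27896618 (-) for Tmem212, each 5′ to 3′ and ending at the base before the start.
Dynlrb2: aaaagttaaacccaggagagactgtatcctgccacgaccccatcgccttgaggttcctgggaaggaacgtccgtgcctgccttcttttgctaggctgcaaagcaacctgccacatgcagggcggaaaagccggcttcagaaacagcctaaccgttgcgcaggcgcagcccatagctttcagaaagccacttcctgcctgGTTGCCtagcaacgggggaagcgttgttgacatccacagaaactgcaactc
Ccdc153: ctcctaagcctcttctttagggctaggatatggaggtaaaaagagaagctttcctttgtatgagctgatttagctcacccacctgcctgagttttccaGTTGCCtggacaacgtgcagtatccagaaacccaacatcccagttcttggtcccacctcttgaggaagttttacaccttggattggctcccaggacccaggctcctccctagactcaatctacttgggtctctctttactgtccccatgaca
Tekt1: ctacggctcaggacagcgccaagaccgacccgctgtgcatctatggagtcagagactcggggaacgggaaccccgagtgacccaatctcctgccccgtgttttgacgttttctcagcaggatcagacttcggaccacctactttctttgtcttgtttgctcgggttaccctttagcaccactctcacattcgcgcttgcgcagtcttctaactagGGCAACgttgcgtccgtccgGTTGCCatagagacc
Tmem212: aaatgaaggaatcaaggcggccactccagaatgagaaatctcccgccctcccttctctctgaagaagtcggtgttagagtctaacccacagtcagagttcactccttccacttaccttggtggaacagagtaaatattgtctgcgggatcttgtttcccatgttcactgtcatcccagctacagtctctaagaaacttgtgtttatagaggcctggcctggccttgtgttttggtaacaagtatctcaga
The first base of the capitals lay 51 bases before the start in Dynlrb2, 152 in Ccdc153, and 35 (reverse) and 15 (forward) in Tekt1. Tekt1 had 2 listed starts, and the start used lies within the annotated span of the gene (chr11:72344722-72362442). The windows of Dnah12 and Drc3 were also drawn, held neither run and are not shown. A match describes letters in these windows and was not tested for binding.

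How the members varied over the 4 groups was read first as their summed level in ependymal-like cells. In sham + WT it was 19776, 22543 and 22145 CPM in replicates 1, 2 and 3, and in sham + Lrg1-/- 19736, 16484 and 12815 in replicates 1, 2 and 5. In MCAO/R + WT it was 18360 and 19536, and in MCAO/R + Lrg1-/- 17113, 11204 and 12503 in replicates 1, 2 and 5. These levels came from 313, 107 and 129 cells in sham + WT and 69, 42 and 43 in sham + Lrg1-/-. They came from 102 and 109 cells in MCAO/R + WT and 29, 311 and 479 in MCAO/R + Lrg1-/-. Every Lrg1-/- library lay below every WT library of the same surgery, although sham + Lrg1-/- replicate 1 was within 40 CPM of the lowest sham + WT library, and the group means were 21488 ± 1496 and 16345 ± 3463 after sham surgery and 18948 ± 831 and 13607 ± 3106 after MCAO/R (SD, n = 3, 3, 2 and 3). No test was made of this sum over a chosen list. Red blood cell and choroid plexus markers, which were high in the Lrg1-/- libraries, are part of the total. With their UMIs taken out of it, sham + Lrg1-/- libraries read 20416, 17092 and 13968, MCAO/R + Lrg1-/- libraries 17393, 11423 and 12729.8, and WT libraries 18370.3 to 22653, so that sham + Lrg1-/- replicate 1 then lay above sham + WT replicate 1, at 19790.5. With cells thinned to 1000 UMIs, a cell showed a mean of 10.8, 16.2 and 16.1 members in sham + WT, 13.9, 11.2 and 9.28 in sham + Lrg1-/-, 13.6 and 14.8 in MCAO/R + WT, and 12.3, 10.04 and 8.72 in MCAO/R + Lrg1-/-. By this measure the sham groups overlapped and the MCAO/R groups did not. With the low-UMI cluster added, the summed member level was 12613, 11074 and 8974 CPM in MCAO/R + Lrg1-/- and 17971, 14517 and 10672 in sham + Lrg1-/-, against 18326 and 19468 in MCAO/R + WT and 19222 to 22543 in sham + WT. The genotypes again did not overlap, and MCAO/R + Lrg1-/- replicates 1 and 5 moved furthest.

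**Figure D2:**
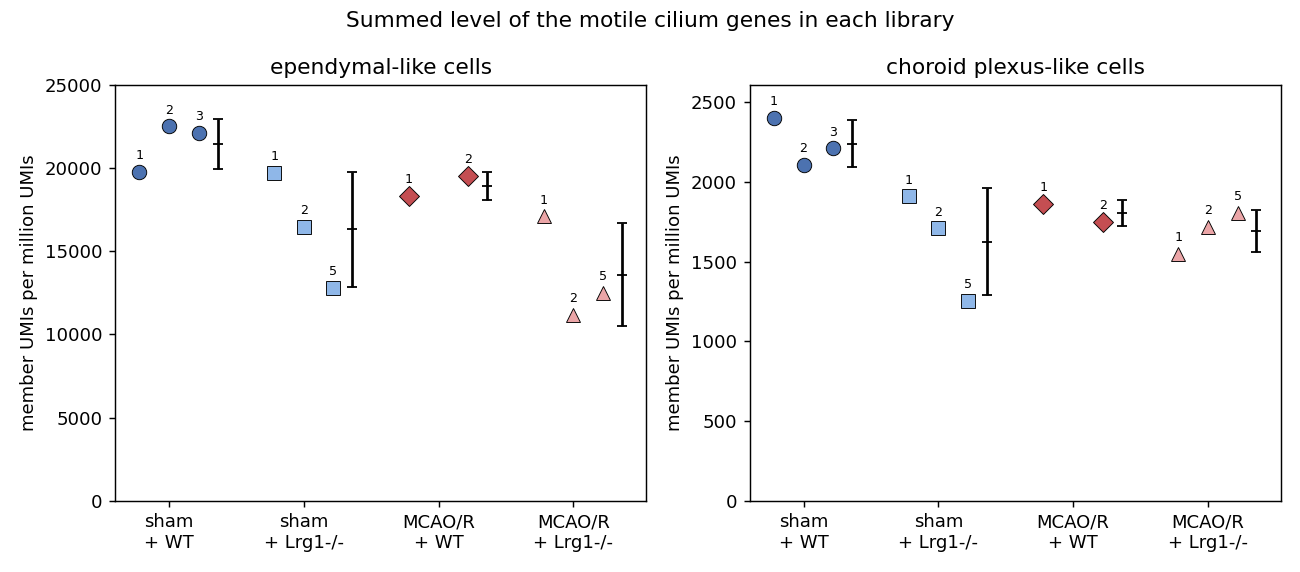
Summed UMIs of the motile cilium genes as CPM in each library (points, numbered by replicate) of ependymal-like cells (left) and choroid plexus-like cells (right), with the mean and SD of each group beside it. In ependymal-like cells sham + WT libraries lay between 19776 and 22543 and MCAO/R + Lrg1-/- libraries between 11204 and 17113.

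The share of ependymal-like cells among retained cells without doublets was compared between groups. It was 1.65 ± 0.67% in sham + WT, 0.99 ± 0.36% in sham + Lrg1-/-, 0.996 ± 0.105% in MCAO/R + WT and 1.27 ± 0.70% in MCAO/R + Lrg1-/- (SD, n = 3, 3, 2 and 3). A two-sided exact permutation test over libraries gave p = 0.7 for MCAO/R + Lrg1-/- against MCAO/R + WT, 0.2 for both sham + Lrg1-/- and MCAO/R + WT against sham + WT, and 0.6 for MCAO/R + Lrg1-/- against sham + Lrg1-/- (adjusted over the 4 comparisons 0.7, 0.4, 0.4 and 0.7). These group sizes cannot give a p below 0.1, so that the test cannot decide whether the shares differed. Retained cells also held choroid plexus-like cells, at 0.228 to 2.01% in WT and 4.11 to 36.8% in Lrg1-/- libraries. Their part in the ependymal-like shares was not tested. MCAO/R + Lrg1-/- replicate 2 decided the sign of both comparisons of its group, which became -0.0114 percentage points against MCAO/R + WT and -0.00547 against sham + Lrg1-/- without it. With the low-UMI cluster added the shares in MCAO/R + Lrg1-/- were 0.859, 2.09 and 4.63% in replicates 1, 2 and 5, against 1.10 and 0.973% in MCAO/R + WT and 1.03, 1.13 and 2.03% in sham + Lrg1-/-. The difference from MCAO/R + WT then went from 0.271 to 1.49 percentage points (exact permutation p = 0.5) and that from sham + Lrg1-/- from 0.277 to 1.13 (exact permutation p = 0.6), with replicate 5 the highest library.

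Gene by gene, the question of what loss of Lrg1 does after MCAO/R was put to UMIs summed per library. Levels below are TMM-normalised CPM of these sums, tests are edgeR's quasi-likelihood test over all genes, and calls needed an adjusted p (Benjamini-Hochberg) under 0.05 together with a natural-log fold change of more than 0.25 in size. In ependymal-like cells 68 members were tested. After MCAO/R, 1 member was lower in Lrg1-/- and 0 were higher, where 1.57% of all 13642 genes tested were called (0.476% lower and 1.09% higher). This was Dnah7c, an inner arm heavy chain (chr1:46425592-46807476, + strand, GRCm38). Its level was 134, 73.8 and 92.0 in MCAO/R + Lrg1-/- and 172 and 229.7 in MCAO/R + WT, which do not overlap. The difference was -1.08 on the log2 scale (SE 0.237, edgeR adjusted p = 0.0391). Dnah7a and Dnah7b are paralogs of Dnah7c on the same chromosome, and reads may have been split between them by the counting, so that the value of any one of the 3 is uncertain. The call was lost without either MCAO/R + WT library (adjusted p = 0.108 without replicate 1 and 0.436 without replicate 2) and without MCAO/R + Lrg1-/- replicate 2 (0.143) or 5 (0.0955).

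Although 1 member was called, nearly all lay on the same side. The log2 difference was negative for 64 of 68 members, with a median of -0.43, where the median of all genes tested was 0.02, and 26 members had an unadjusted p under 0.05. The share of all genes at that unadjusted limit is not given, here or below. Such counts therefore cannot be set against the shares of genes called. In 33 members every MCAO/R + Lrg1-/- library was below both MCAO/R + WT libraries, and in 1 it was above, where 18% and 18.3% of all genes did so. All 13 Dnah genes were negative (median -0.62, from -1.08 to -0.14), as were all 32 Cfap genes (median -0.42), 5 Dnaaf genes (-0.32), 4 Tekt genes (-0.27) and 3 Drc genes (-0.28). Of 7 Rsph genes 6 were negative (median -0.70). The exceptions were Rsph9, a radial spoke head component, at 0.16, Foxj1 at 0.07, Ccdc153 at 0.05 and Tmem212 at 0.01, none of which was called. Members are not independent of each other, as 1 library can move them together. The number called was 17 with the low-UMI cluster added and 10 when cells were picked one by one by their markers, where 6.9% and 3.9% of all genes were called, but 0 when cells were thinned to 1000 UMIs or when only these 2 groups were fitted, where 0.478% and 0.0472% of all genes were called.

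**Figure D3:**
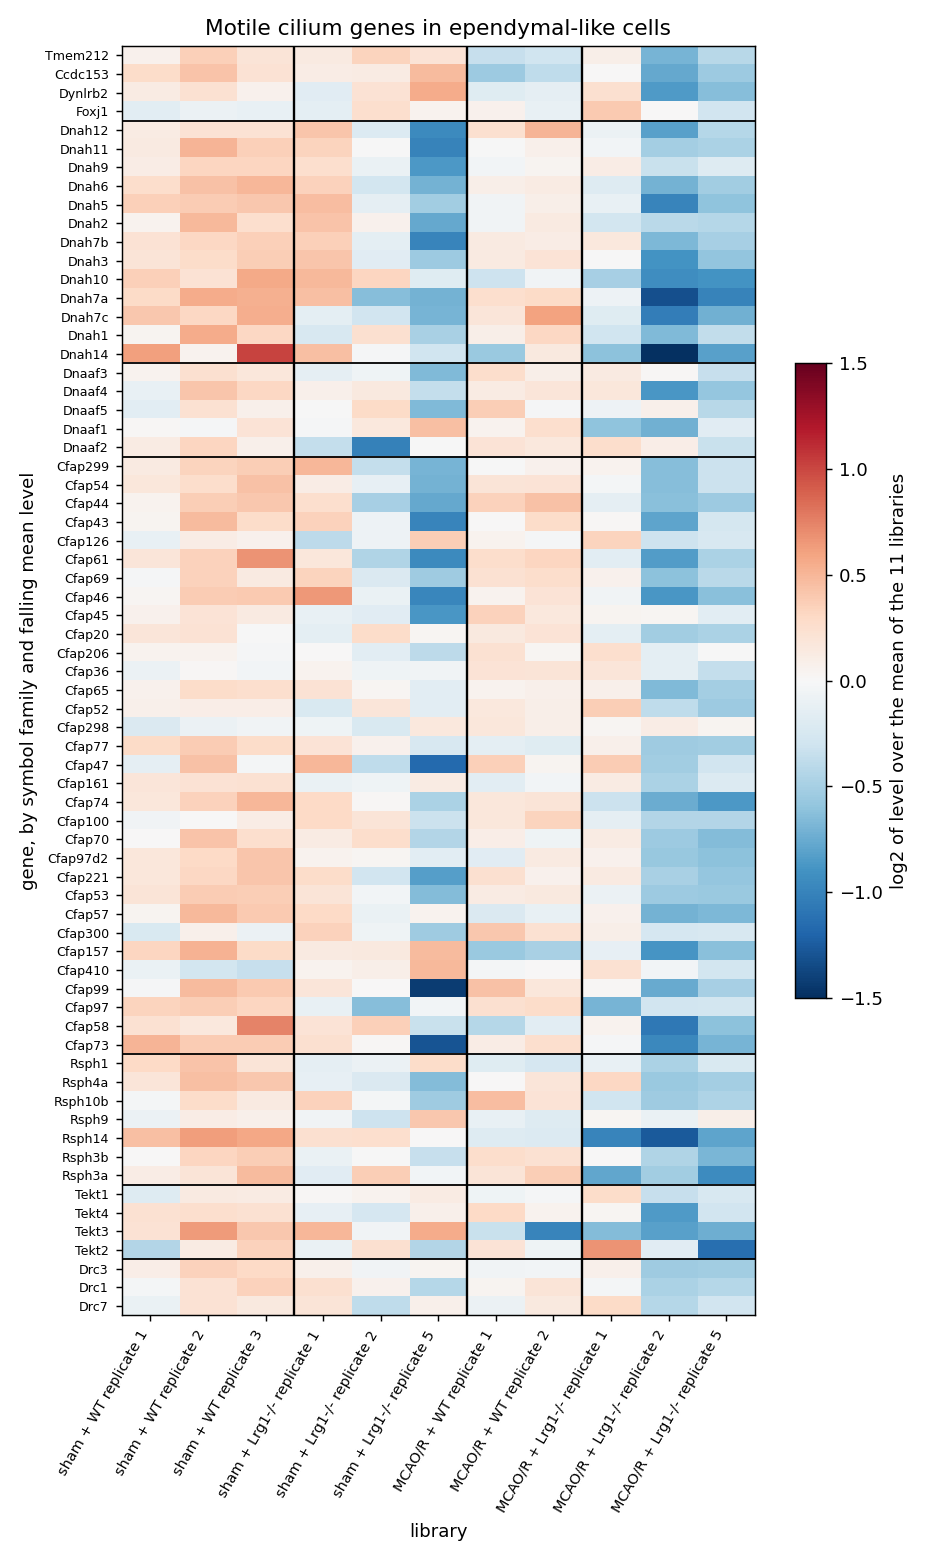
Level of the 68 tested motile cilium genes in ependymal-like cells (rows, grouped by symbol family) in the 11 libraries (columns, grouped by genotype and surgery), as log2 of the TMM-normalised level over the gene's mean of the 11 libraries, with colours cut at 1.5 in size. Most rows are blue in MCAO/R + Lrg1-/- replicates 2 and 5 and, in the Dnah and Cfap families, in sham + Lrg1-/- replicate 5, whereas those of Foxj1 and Rsph9 are pale.

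The members with the highest levels in each family show how libraries differed. Dnah12 (chr14:26693274-26891703, +) had 1000.9, 1070.4 and 1072 in sham + WT, 1232, 797 and 475.5 in sham + Lrg1-/-, 1087 and 1306 in MCAO/R + WT and 868, 525 and 683 in MCAO/R + Lrg1-/-. Its MCAO/R groups did not overlap, with a difference of -0.80 (SE 0.312, edgeR adjusted p = 0.184), and sham + Lrg1-/- replicate 5 was its lowest library. Dnah11 and Dnah9, both outer arm heavy chains, had differences of -0.37 and -0.14 after MCAO/R. Cfap299 reached 1233, 764 and 950.4 in MCAO/R + Lrg1-/- against 1187 and 1247 in MCAO/R + WT, and these overlapped. For Cfap54, a central apparatus protein, the values were 742.5, 488 and 606 against 866 and 878, with no overlap (difference -0.52, adjusted p = 0.270). Cfap44 gave 441, 313 and 330.5 against 612 and 653 (difference -0.82, adjusted p = 0.122). Neither gene was called.

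Of the spoke genes, Rsph1, a radial spoke head protein, had 532.5, 416 and 493 in MCAO/R + Lrg1-/- and 508.5 and 484 in MCAO/R + WT, which overlap. Rsph4a and Rsph10b, of the same spokes, had differences of -0.34 and -0.78. Drc3, Drc1 and Drc7 had -0.28, -0.45 and -0.19. Dnaaf3, Dnaaf4 and Dnaaf5 had -0.25, -0.62 and -0.32, and Tekt1 and Tekt4 -0.07 and -0.58. No member of these 4 families was called in this comparison.

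The 4 genes named one by one had small genotype differences in ependymal-like cells. Foxj1 had 460.4, 352 and 288 in MCAO/R + Lrg1-/- against 365 and 325 in MCAO/R + WT (difference 0.07, SE 0.209). Tmem212, a membrane protein gene of ciliated cells, had 1763, 1026 and 1241 against 1305 and 1353 (0.01, SE 0.235). Ccdc153, a coiled-coil gene of ciliated cells, had 1099, 647 and 751 against 752 and 841.5 (0.05, SE 0.237), and Dynlrb2 607, 285 and 330.1 against 454 and 466 (-0.20, SE 0.288). In all 4, replicate 1 was the highest of the MCAO/R + Lrg1-/- libraries and the groups overlapped. After sham surgery their genotype differences ran from -0.07 to 0.18.

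After sham surgery 0 of 68 members were called between genotypes in ependymal-like cells, where 1.8% of all genes were (edgeR, with 11 members at an unadjusted p under 0.05, and 1 called by DESeq2). The difference was negative for 57 members, with a median of -0.28 against 0.00 for all genes tested, and in 16 members every Lrg1-/- library was below every WT library and in 1 above, against 11% and 11.9% of all genes. All 13 Dnah and all 3 Drc genes were negative, as were 27 of 32 Cfap genes, 6 of 7 Rsph, 4 of 5 Dnaaf and 3 of 4 Tekt genes. Dnah7c was again the furthest below among heavy chains (-0.77, adjusted p = 0.0943). Leaving out sham + Lrg1-/- replicate 1 gave 3 called members, where 4.94% of all genes were then called, and picking cells one by one by their markers gave 39 (38 of them lower), where 18.6% were. Genotype comparisons in both surgeries also moved with the red blood cell and choroid plexus markers given above. Of 19 marker lists, 6 lay higher without overlap in MCAO/R + Lrg1-/- than in MCAO/R + WT and 1, that of oligodendrocyte precursors, lower. In TMM-normalised CPM, microglial markers summed to 623 to 1419 in MCAO/R + Lrg1-/- against 384 to 489 in MCAO/R + WT, monocyte markers to 91.4 to 228 against 25.2 to 28.3, neutrophil markers to 42.4 to 2968 against 18.9 to 20.8, and B cell markers to 12.1 to 26.6 against 0 to 3.96. After sham surgery 5 lists lay higher in Lrg1-/-, which beside the red blood cell and choroid plexus lists were those of NK cells, T cells and vascular smooth muscle cells, and 0 lower. The part of these cells' RNA in the genotype results was not tested.

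The effect of MCAO/R was asked within each genotype. In WT mice 0 of 68 members were called in ependymal-like cells, where 0.718% of all genes were (edgeR, with 9 at an unadjusted p under 0.05 and 2 called by DESeq2). The lowest differences among the named genes were those of Tekt3 (-1.04, adjusted p = 0.132), Cfap157 (-0.90, 0.0848), Ccdc153 (-0.78, 0.174) and Rsph14 (-0.75, 0.109). In 26 members both MCAO/R + WT libraries lay below all sham + WT libraries, and in 6 above, against 18.5% and 17.9% of all genes. The 12 ependymal markers that named the cluster were below too, at 5716 to 5807 TMM-normalised CPM in MCAO/R + WT against 7495 to 8251 in sham + WT, as were microglial markers (384 to 489 against 713 to 1468) and endothelial markers (365 to 503 against 735 to 1388). In all, 5 of 19 marker lists were lower without overlap and 1 was higher, and their part in the members' shift was not tested. Fitting only these 2 groups gave 5 called members, where 3.42% of all genes were called.

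In Lrg1-/- mice 4 members were lower after MCAO/R and 0 higher, where 4.35% of all genes were called (2.1% lower and 2.26% higher). All MCAO/R + Lrg1-/- libraries were below all sham + Lrg1-/- libraries for 9 members and above them for 0, against 8.91% and 10.1% of all genes. Rsph14, a radial spoke protein (chr10:74957477-75032586, -), had 21.2, 17.6 and 24.4 in MCAO/R + Lrg1-/- against 49.9, 50.2 and 42.3 in sham + Lrg1-/-, a difference of -1.18 (SE 0.206, edgeR adjusted p = 0.0102). In WT its levels were 57.7, 65.1 and 62.9 after sham surgery and 36.8 and 36.6 after MCAO/R, so that it was below all sham libraries in both genotypes. Dnah10, an inner arm heavy chain (chr5:124725085-124834308, +), had 136, 100.9 and 103 against 268, 239 and 169 (difference -1.03, SE 0.205, edgeR adjusted p = 0.0151). Its groups too were apart, with sham + Lrg1-/- replicate 5 nearest. Cfap157, a basal body associated gene (chr2:32777381-32784428, -), had 38.2, 22.5 and 27.0 against 45.8, 46.2 and 58.1 (-0.89, SE 0.222, edgeR adjusted p = 0.0388). Tekt3 (chr11:63061654-63094964, +) had 10.6, 9.51 and 10.1 against 23.6, 16.1 and 24.7 (-1.13, SE 0.2998, edgeR adjusted p = 0.0496). None of the 4 had an overlap between these groups. Replicate 1 of MCAO/R + Lrg1-/- had only 29 ependymal-like cells. It held 10 UMIs of Rsph14, 64 of Dnah10, 18 of Cfap157 and 5 of Tekt3. Sham + Lrg1-/- libraries held 17, 8 and 14 UMIs of Tekt3. Markers of other cells moved with the same comparison in ependymal-like cells. Macrophage markers summed to 78.5 to 111 TMM-normalised CPM in MCAO/R + Lrg1-/- against 12.5 to 45.8 in sham + Lrg1-/-, and monocyte markers to 91.4 to 228 against 20.8 to 58.1. Endothelial markers (307 to 699 against 1104 to 3452), choroid plexus markers (5101 to 14274 against 16511 to 22552) and vascular smooth muscle markers (223 to 813 against 903 to 1066) were lower, and the other 14 of 19 lists overlapped. Their part in these 4 calls was not tested.

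Leaving out a library changed some of these calls. Rsph14 was called without any one of the 6 libraries (adjusted p from 0.00909 to 0.0449). Dnah10 was not called without sham + Lrg1-/- replicate 2 (0.0568) or MCAO/R + Lrg1-/- replicate 2 (0.0661) or 5 (0.0619). Cfap157 and Tekt3 were called only with all 6 libraries or without MCAO/R + Lrg1-/- replicate 1 (adjusted p = 0.0136 and 0.0433), and otherwise lay between 0.0568 and 0.168. With MCAO/R + Lrg1-/- replicate 1 left out 10 members and 8% of all genes were called, and without MCAO/R + Lrg1-/- replicate 2 or 5 or sham + Lrg1-/- replicate 2 it was 1 member and 1.64%, 2.31% and 1.47% of all genes. Other alternatives also lost these calls. With cells picked one by one none of the 4 was called (Rsph14 at an adjusted p of 0.0695, Dnah10 at 0.0971), with only the 2 groups Rsph14 alone was (0.0449), and with the replicate number as a block Rsph14 and Dnah10 were (0.0232 and 0.0236). Over all alternatives Rsph14 lost its call in 1 of 15, Dnah10 in 5 of 16, Cfap157 in 9 of 15 and Tekt3 in 12 of 15. Tmem212 (-0.54) and Ccdc153 (-0.65) had all MCAO/R + Lrg1-/- libraries below all sham + Lrg1-/- libraries but were not called (adjusted p = 0.160 and 0.0971). Whether the genotype difference itself differed between surgeries was tested as an interaction, which called 0 of 68 members and 0% of all genes (edgeR, with 3 members at an unadjusted p under 0.05 and 0 by DESeq2). The 4 comparisons share libraries, so their values for one gene are not independent.

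Other genes of the cilium, listed apart from the members, were read in the same fit. Of 87 listed, 86 were in the gene table (Dyx1c1, an older symbol of Dnaaf4, was not) and 83 were tested in ependymal-like cells. After MCAO/R 1 was lower in Lrg1-/- than in WT, Ak8, an adenylate kinase of cilia (-1.28, SE 0.188, edgeR adjusted p = 0.00886), where 0.476% of all genes were lower, and 67 of 83 differences were negative with a median of -0.35. Intraflagellar transport, the traffic that builds cilia, had 22 of 25 genes negative (median -0.33), and axoneme, central pair and linker genes 25 of 31 (-0.36). Transcription and basal body genes, such as those that act before the axoneme is built, had 6 of 10 negative (-0.12). None was called higher. After sham surgery 71 of 83 were negative between genotypes and 0 were called, where 1.8% of all genes were. After MCAO/R, Nme9 (-0.95) and Stoml3 (-1.11) were lower than after sham surgery in WT mice (edgeR adjusted p = 0.0222 and 0.0416), as were Ccdc103 (-1.61), Ak8 (-0.84) and Rfx4 (-0.84) in Lrg1-/- mice (0.0103, 0.0271 and 0.0381). These were 2 and 3 of 83 genes, where 0.718% and 4.35% of all genes were called. Ccdc103 attaches dynein arms and Rfx4 is an RFX factor.

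Choroid plexus-like cells carried the members at lower levels than ependymal-like cells. Epithelium of the choroid plexus secretes cerebrospinal fluid and bears tufts of cilia. These cells were 0.228 to 2.01% of retained cells in WT libraries and 4.11 to 36.8% in Lrg1-/- libraries. Their summed member level, without TMM scaling, was 2404, 2109 and 2212 CPM in sham + WT, 1911, 1710.5 and 1254 in sham + Lrg1-/-, 1864 and 1749.5 in MCAO/R + WT, and 1551, 1720.2 and 1806 in MCAO/R + Lrg1-/-. The sham groups did not overlap and the MCAO/R groups did. Red blood cell markers summed to 55.5 to 84.3 CPM in these cells in WT and 23272 to 89979 in Lrg1-/- libraries, and with their UMIs taken out of the total sham + Lrg1-/- libraries read 1957, 1762 and 1378.

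After MCAO/R 21 of 65 members tested were called between genotypes in choroid plexus-like cells, 11 higher and 10 lower in Lrg1-/-, where 25% of all 14239 genes were called, 13.1% higher and 11.9% lower. The members' own shares, 16.9% higher and 15.4% lower, were near these. With cells thinned to 1000 UMIs 0 of 34 members tested were called, where 1.21% of all genes were. Those lower were Dnah6, Dnah7b, Dnah9 and Dnah11 and the Cfap genes 43, 44, 54, 65, 69 and 74. Of these, Cfap44 (0.65), Cfap65 (0.77) and Dnah11 (5.87) had positive log2 differences, none called, with cells thinned, and Cfap65 (0.34) also at a mitochondrial limit of 10%. Dnah11 had only 37 and 14 UMIs in the MCAO/R + WT libraries before thinning, so that the size of its thinned value is uncertain. Dnah7b (chr1:46066315-46373546, +) had 6.95, 17.1 and 13.9 in MCAO/R + Lrg1-/- against 55.8 and 69.8 in MCAO/R + WT, a difference of -2.30 (SE 0.314, edgeR adjusted p = 0.00166). Cfap54 had 13.2, 21.3 and 20.9 against 57.1 and 54.2 (-1.60, SE 0.229, edgeR adjusted p = 0.00175). Both had groups far apart. Cfap69 (-1.34, adjusted p = 0.00502) and Dnah6 (-1.53, 0.00524) were likewise below both WT libraries.

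Those higher were Cfap45, Cfap100, Cfap126, Cfap161, Cfap298, Cfap299, Cfap410, Rsph1, Tmem212, Ccdc153 and Dynlrb2. Cfap126, also known as Flattop, a doublet inner protein, had 120.03, 119 and 133 in MCAO/R + Lrg1-/- against 64.5 and 49.9 in MCAO/R + WT (1.09, SE 0.221, edgeR adjusted p = 0.00507). Cfap410 had 36.3, 37.9 and 38.4 against 19.5 and 12.8 (1.15, SE 0.2502, edgeR adjusted p = 0.00691). In both, the Lrg1-/- libraries lay close together above the WT libraries. MCAO/R + WT held few of these cells, 109 and 27. Tmem212 had only 7 and 1 UMIs and Ccdc153 3 and 1 UMIs there, against 106 to 228 and 60 to 159 in MCAO/R + Lrg1-/-. Cfap100 had 0 UMIs in both MCAO/R + WT libraries, so that no fold is given. Ependymal markers summed to 991 to 1194 TMM-normalised CPM in these cells in MCAO/R + Lrg1-/- and 701 to 805 in MCAO/R + WT, and 12 of 19 marker lists in all lay higher in Lrg1-/- without overlap and 0 lower, whose part in the calls was not tested. The calls rested on few WT cells. Without MCAO/R + WT replicate 1 there were 6 called members of 69 tested and without replicate 2 there were 8, where 12.2% and 4.61% of all genes were called. At a mitochondrial limit of 10%, under which replicate 2 had too few cells to enter, there were 0, where 0.0542% of all genes were called.

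After sham surgery 19 of 65 members were called between genotypes, 2 higher and 17 lower in Lrg1-/-, where 23.4% of all genes were called, 11.7% in each direction. Of the members 3.08% were higher and 26.2% lower. The count fell to 6 of 67 tested at the mitochondrial limit of 10% and to 2 of 34 with cells thinned to 1000 UMIs, where 4.58% and 5.89% of all genes were called. The lower members included 6 of 12 Dnah, 10 of 30 Cfap and 1 of 3 Drc genes, and 0 of the 7 Rsph, 4 Tekt and 5 Dnaaf genes. Dnah7b had 8.44, 9.004 and 10.8 in sham + Lrg1-/- against 36.6, 46.4 and 46.5 in sham + WT (-2.22, SE 0.283, edgeR adjusted p = 0.00111). Cfap54 (-1.46, adjusted p = 0.00141), Dnah11 (-1.97, 0.00145), Cfap69 (-1.62, 0.00156), Cfap44 (-1.34, 0.00169) and Cfap74 (-1.43, 0.00253) were also below every WT library. Tmem212 had 10.2, 11.8 and 15.4 against 3.09, 2.41 and 8.98 (1.42, SE 0.444, edgeR adjusted p = 0.0350), and Ccdc153 8.87, 10.3 and 12.7 against 1.03, 0.688 and 6.87 (1.9998, SE 0.528, edgeR adjusted p = 0.0173). Sham + WT replicate 3 was the highest WT library for both. Both genes lost the call without sham + WT replicate 1 or 2 (Tmem212 0.105 and 0.182, Ccdc153 0.0594 and 0.1002), and Tmem212 also without sham + Lrg1-/- replicate 2 (0.0647) or 5 (0.0883). In this comparison 11 of 19 marker lists lay higher in Lrg1-/- without overlap and 0 lower. Microglial markers summed to 1357 to 2554 TMM-normalised CPM against 600 to 610, and vascular smooth muscle markers to 781 to 2346 against 86.0 to 366. Their part in the calls was not tested.

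Cfap299 went in opposite directions in the 2 surgeries. It had 36.1, 25.8 and 36.5 in sham + WT, 15.4, 16.3 and 12.9 in sham + Lrg1-/-, 6.05 and 8.55 in MCAO/R + WT, and 14.9, 16.2 and 13.7 in MCAO/R + Lrg1-/-. Both MCAO/R + WT libraries, with 9 and 6 UMIs, were the lowest. It was lower in Lrg1-/- after sham surgery (-1.12, SE 0.196, edgeR adjusted p = 0.00292), higher after MCAO/R (1.10, SE 0.319, edgeR adjusted p = 0.0242), and the only member called between MCAO/R + WT and sham + WT (-2.22, SE 0.315, edgeR adjusted p = 0.00797), where 1.08% of all genes were called (0.471% lower). The interaction was 2.22 (SE 0.370) and was not called after adjustment over all genes (edgeR adjusted p = 0.220, unadjusted 3.7e-05). Without MCAO/R + WT replicate 1 the adjusted p was 0.267 for the genotype comparison after MCAO/R and 0.0940 for MCAO/R in WT, and without replicate 2 that genotype comparison gave 0.0693. The interaction called 0 of 65 members and 0% of all genes (edgeR, with 12 members at an unadjusted p under 0.05 and 1 called by DESeq2). Between MCAO/R + Lrg1-/- and sham + Lrg1-/- 0 members were called, where 1.29% of all genes were (edgeR, with 4 at an unadjusted p under 0.05 and 0 by DESeq2). Between MCAO/R + WT and sham + WT, 4 of 19 marker lists lay lower without overlap and 1, that of neutrophils, higher. Ependymal markers (701 to 805 TMM-normalised CPM against 982 to 1363) and choroid plexus markers (186656 to 197553 against 205017 to 229820) were among those lower. Their part in the call of Cfap299 was not tested.

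The genotype difference varied with the length of the gene. In choroid plexus-like cells the called members that were lower in Lrg1-/- had a median genomic span of 193 kb after MCAO/R and 204 kb after sham surgery, and those that were higher 20.8 kb and 18.5 kb, where the median of all tested genes was 24.5 kb. All called genes had a median of 88.6 and 92.0 kb where lower and 9.28 and 9.59 kb where higher. Cfap299, at 473 kb the longest called member, was called higher after MCAO/R and lower after sham surgery. Across members, span and log2 difference had a Spearman rho of -0.48 after MCAO/R and -0.75 after sham surgery (n = 65 genes), which share libraries, depth and reads. All genes tested showed the same sign, with a rho of -0.43 and -0.44 over 14231 genes. In ependymal-like cells rho was -0.46 after MCAO/R and -0.54 after sham surgery over 68 members, and -0.25 and -0.38 over 13635 genes. For MCAO/R against sham surgery within WT the values were -0.23 for members in ependymal-like and 0.05 in choroid plexus-like cells, and within Lrg1-/- -0.12 and 0.32. Heavy chain genes are long, as Dnah7b at 307 kb and Dnah11 show, whereas Ccdc153 spans 6.63 kb and Dynlrb2 10.9 kb. Whether reads in introns were counted is not given in the sources used here, and the part of gene length in the genotype results was not tested.

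**Figure D4:**
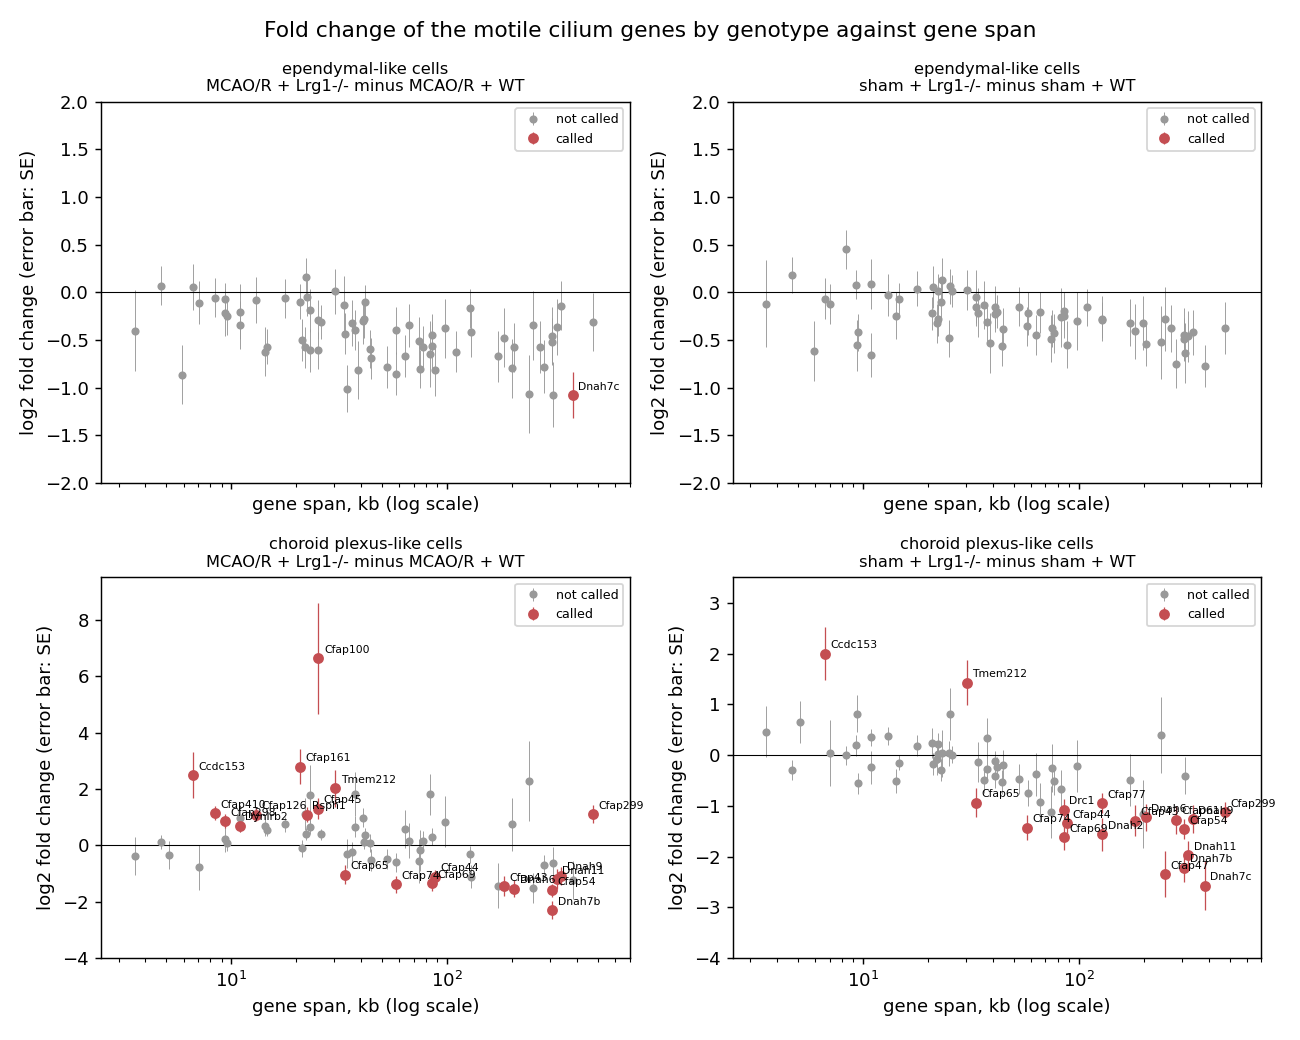
Log2 fold change by genotype, with its SE, against the genomic span of each tested motile cilium gene (log axis) in ependymal-like (top) and choroid plexus-like cells (bottom) after MCAO/R (left) and sham surgery (right), with called genes in red and named. In choroid plexus-like cells the red points below 0 have a median span of 193 and 204 kb and those above 0 of 20.8 and 18.5 kb. The value of Cfap100 rests on 0 UMIs in both MCAO/R + WT libraries and has no set size.

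Of 78 other cilium genes tested in choroid plexus-like cells, 10 were higher and 15 lower in Lrg1-/- after MCAO/R, where 13.1% and 11.9% of all genes were, and 1 was higher and 24 lower after sham surgery, where 11.7% of all genes were called in each direction. The strongest calls after MCAO/R were Dync2h1, the motor of retrograde intraflagellar transport (-1.59, SE 0.217, edgeR adjusted p = 0.00166), Spag16 of the central pair (-1.69, 0.00198) and Wdr78, a dynein intermediate chain (-1.32, 0.00290). After sham surgery they were Spef2 (-1.502, adjusted p = 0.00143), Spag16 (-1.64, 0.00146) and Ak9 (-1.47, 0.00150). Foxj1 itself was not called in any comparison here. Its level was 53.6, 69.5 and 81.9 in sham + WT, 55.9, 62.8 and 48.0 in sham + Lrg1-/-, 29.6 and 47.0 in MCAO/R + WT, and 44.9, 41.4 and 34.1 in MCAO/R + Lrg1-/-. MCAO/R libraries lay below the sham libraries in each genotype, with -0.89 (edgeR adjusted p = 0.133) in WT and -0.47 (0.333) in Lrg1-/-.

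In cells without motile cilia, several members were higher in Lrg1-/- after MCAO/R, mostly at levels of a few CPM. In microglia-like cells 11 members were higher and 1 lower of 71 tested, where 20.8% of all 18454 genes were called (10.4% higher). In endothelial-like cells 12 were higher and 1 lower of 64, where 24.6% of 16558 genes were called (12.2% higher), and in oligodendrocyte-like cells 18 were higher and 6 lower of 61, where 29% of 16111 genes were called (14.5% higher). These counts fell with cells thinned to 1000 UMIs, to 5 of 42 members tested in microglia-like, 2 of 24 in endothelial-like and 3 of 13 in oligodendrocyte-like cells, where 15.9%, 17.1% and 23.7% of all genes were called. Tekt1, Rsph1, Rsph9, Drc7, Dynlrb2, Ccdc153 and Tmem212 were higher in all 3 types without thinning. Of the 41 calls that were higher 37 had a mean under 10 CPM in MCAO/R + Lrg1-/-. The other 4 were Cfap298 in endothelial-like (43.2 CPM), Cfap43 in microglia-like (18.4 CPM), and Dnah2 and Rsph9 in oligodendrocyte-like cells (14.2 and 11.9 CPM). In astrocyte-like cells 0 of 36 members were called, where 4.14% of all genes were (edgeR, with 9 at an unadjusted p under 0.05 and 1 called by DESeq2).

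Rsph1 had 3.20, 6.45 and 6.27 in microglia-like cells of MCAO/R + Lrg1-/- against 0.990 and 1.10 in MCAO/R + WT (2.40, SE 0.424, edgeR adjusted p = 0.00191), and in endothelial-like cells 6.32, 5.81 and 6.84 against 1.38 and 0.894 (2.44, SE 0.364, edgeR adjusted p = 0.000661). The sham libraries showed the same order for this gene, with 2.61 to 7.61 in microglia-like cells of sham + Lrg1-/- and 1.15 to 1.81 in those of sham + WT. In ependymal-like cells the same gene was at 416 to 532.5 in MCAO/R + Lrg1-/-. Tmem212 had 3.58, 7.94 and 9.66 in microglia-like cells of MCAO/R + Lrg1-/- against 2.40 and 2.54 in MCAO/R + WT, and MCAO/R + Lrg1-/- replicates 2 and 5 were the highest of these 5 libraries. Markers of red blood cells and choroid plexus were higher in Lrg1-/- libraries in ependymal-like cells. Their sums are not given for the types without motile cilia, and the part of free RNA in these calls was not tested.

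**Figure D5:**
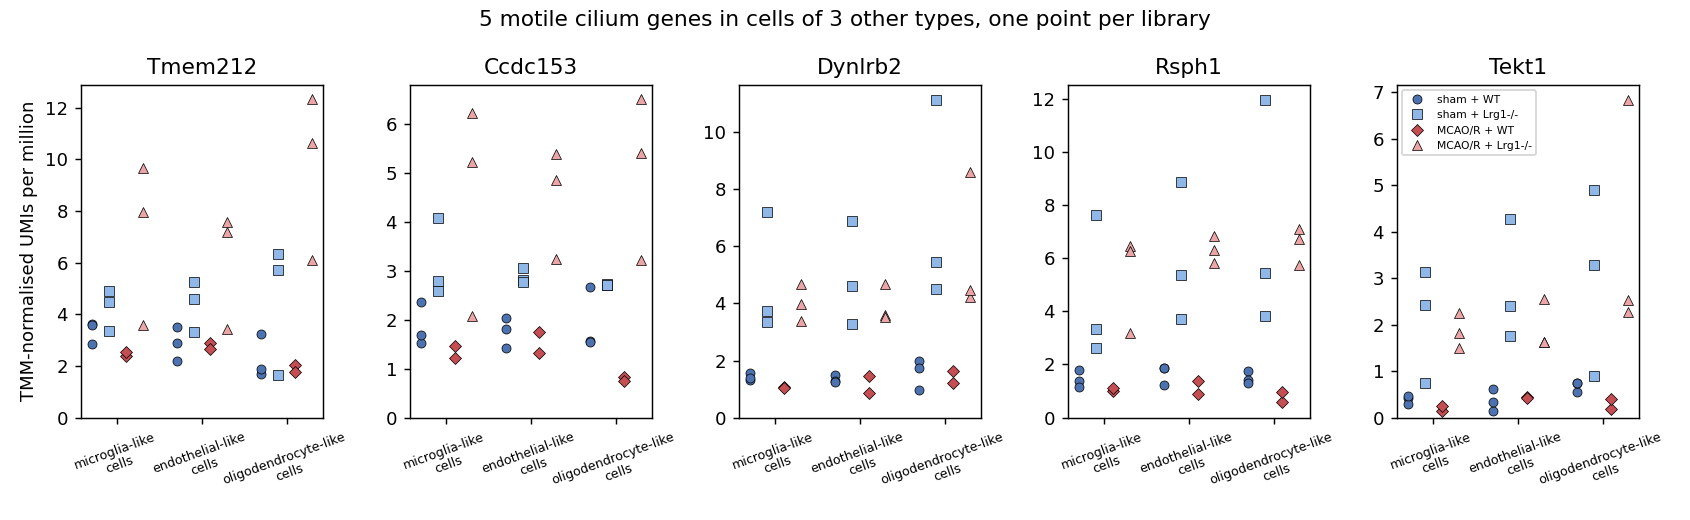
TMM-normalised CPM of 5 motile cilium genes, chosen after their values were seen, in microglia-like, endothelial-like and oligodendrocyte-like cells, with 1 point per library, shaped and coloured by group. For Rsph1 the MCAO/R + Lrg1-/- libraries lay between 3.20 and 7.11 in the 3 types and the MCAO/R + WT libraries between 0.57 and 1.38.

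Cfap97d1 was the one member called lower in both microglia-like (-1.66, edgeR adjusted p = 0.0363) and endothelial-like cells (-1.79, 0.0458). Its mean level was only 0.845 CPM in microglia-like and 0.298 CPM in endothelial-like cells. The call was kept in 4 of 4 alternatives in microglia-like cells and lost in 2 of 4 in endothelial-like cells. In oligodendrocyte-like cells the lower members were Dnah9 (-2.47, edgeR adjusted p = 0.000142), Cfap57, Cfap36, Cfap97, Cfap47 and Cfap53. In endothelial-like cells Cfap36 had 56.9, 52.7 and 42.1 in MCAO/R + Lrg1-/- against 41.7 and 43.7 in MCAO/R + WT, and Cfap20 42.4, 47.7 and 46.4 against 53.2 and 59.9. Neither was called.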

How the data were processed

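Libraries were grouped by the labels. The deposited files hold raw UMI counts per gene and barcode, which the authors made with Cell Ranger, version 7.0.1 per the file headers (STAR and mm10 per the submitters' processing notes), while the study's methods name an earlier version of Cell Ranger. Other files were not analysed here. Whether introns were counted is not given in the sources used here. Cells passed limits of 500 genes, 1000 UMIs and 25% mitochondrial UMIs (132437 of 155804 barcodes), and 7091 doublets were removed by simulated doublet scores, by the 6% highest scores where the automatic call failed. Libraries shared 5 to 146 barcodes per pair, and each library was kept whole. Cells were clustered with leidenalg 0.10.2 on 15 principal components of 2000 variable genes, leaving out only the members and the listed other cilium genes. Clusters were named from marker lists. That of ependymal-like cells holds markers of ciliated cells, such as Ak7 and Meig1, so that the naming is not independent of the cilium programme. The members and lists were chosen with earlier results of these data known.

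UMIs were summed per library and type (at least 20 cells) and tested with edgeR 4.0.16 (R 4.3.3) by TMM scaling, filterByExpr and the quasi-likelihood test with all 4 groups in 1 fit, which was tested on simulated data. Adjusted p-values are Benjamini-Hochberg over all genes tested, and replicates are 1 mouse each. Shares were compared by exact permutation. Named genes are the 4 named one by one, the 3 of each symbol family with the highest ependymal-like level, up to 6 called members per comparison and ciliated type with the smallest adjusted p, up to 3 called other cilium genes, and the 3 highest members of other types, and others are named where counts or exceptions call for it. Same-numbered libraries did not deviate together (correlations -0.166 to 0.083 over 13 pairs in ependymal-like and -0.294 to 0.143 in choroid plexus-like cells), so numbers were not used as pairs. Gene positions are GENCODE M21 (GRCm38). Alternatives were DESeq2 1.42.0, no count filter, a 10% mitochondrial limit, doublets kept, cells thinned to 1000 UMIs, 10 cells per library, only the groups compared, the replicate block, cells picked one by one, and leaving out each library. Adding the low-UMI cluster was chosen after seeing the data.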

Additional observations from a re-analysis of the deposited data

How the results depend on the processing

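Counts of called members are given for each alternative that moved them by over 1.5 times, each with the share of all genes called in the same fit in parentheses. In ependymal-like cells, MCAO/R + Lrg1-/- against MCAO/R + WT had 1 called member (1.57%), and 7 by DESeq2 (3.95%), 8 without the count filter (5.1%), 2 with doublets kept (1.35%), 10 with cells picked one by one (3.9%), 17 with the low-UMI cluster (6.9%), 0 with cells thinned (0.478%), with only the 2 groups (0.0472%) and with the replicate block (0.323%), and 0 to 4 without single libraries (0.0207 to 3.45%). For sham + Lrg1-/- against sham + WT it had 0 (1.8%), and 1 by DESeq2 (3.96%), 3 without the count filter (3.58%), 39 with cells picked one by one (18.6%), 1 with the low-UMI cluster (5.36%) and 0 to 3 without single libraries (0.232 to 4.94%). MCAO/R + WT against sham + WT had 0 (0.718%), and 2 by DESeq2 (1.63%), 1 without the count filter (2.89%) and 5 with only the 2 groups (3.42%). MCAO/R + Lrg1-/- against sham + Lrg1-/- had 4 (4.35%), and 1 with cells thinned (1.4%) or with only the 2 groups (2.26%), 2 with the replicate block (3.07%), 0 with cells picked one by one (0.922%) and 1 to 10 without single libraries (1.47 to 8%). In choroid plexus-like cells the genotype comparison after MCAO/R had 21 (25%), and 0 at the 10% mitochondrial limit (0.0542%) or with cells thinned (1.21%), 13 with only the 2 groups (11.9%) and 6 to 21 without single libraries (4.61 to 28.5%). After sham surgery it had 19 (23.4%), and 6 at the 10% limit (4.58%) and 2 with cells thinned (5.89%). MCAO/R in WT had 1 (1.08%), and 5 by DESeq2 (2.48%) or with only the 2 groups (3.99%), 8 without the count filter (2.84%), 0 at the 10% limit (0.00678%) or with cells thinned (0.131%), 2 with doublets kept (1.16%), with the replicate block (0.26%) or with cells picked one by one (1.52%), and 0 to 1 without single libraries (0.146 to 0.411%). MCAO/R in Lrg1-/- had 0 (1.29%), and 0 to 3 without single libraries (0.255 to 5.24%), and the interaction 0 (0%), 1 by DESeq2 (0.176%) and 2 without the count filter (0.858%). With cells thinned the count fell from 12 (20.8%) to 5 (15.9%) in microglia-like, from 13 (24.6%) to 2 (17.1%) in endothelial-like, where it was 21 with doublets kept (26%), and from 24 (29%) to 3 (23.7%) in oligodendrocyte-like cells, and in astrocyte-like cells, with 0 (4.14%), it was 1 by DESeq2 (9.14%) or with doublets kept (3.9%) and 10 without the count filter (6.73%). Values turned sign for Cfap44 (0.65 with cells thinned), Cfap65 (0.34 at the 10% limit, 0.77 thinned) and Dnah11 (5.87 thinned) in choroid plexus-like cells after MCAO/R, and for the ependymal-like share between sham genotypes (0.00506 percentage points with cells picked one by one) and for that of MCAO/R + Lrg1-/- without replicate 2, the range without single libraries being -0.0114 to 0.665 against MCAO/R + WT and -0.00547 to 0.671 against sham + Lrg1-/-. Thinning leaves few UMIs and the 10% limit takes MCAO/R + WT replicate 2 out of the choroid plexus-like fit. Leaving that library out alone still gave 8 called members (4.61%) in the genotype comparison after MCAO/R, against 0 (0.0542%) at the 10% limit. The cause of these changes was not tested for any alternative. Of 76 values of called genes in ependymal-like cells under alternatives, 42 kept their call, 34 lost it and 0 turned sign.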

Other observations

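Cfap74, whose product belongs to the central apparatus of motile cilia, was among the 3 members with the highest level in microglia-like cells. There it had 68.4, 68.8 and 82.9 TMM-normalised CPM in sham + WT and 70.2, 87.0 and 62.4 in sham + Lrg1-/-, but 13.5 and 25.03 in MCAO/R + WT and 19.98, 14.9 and 26.3 in MCAO/R + Lrg1-/-. The 6 sham libraries lay above the 5 MCAO/R libraries, with no overlap in either genotype. In endothelial-like cells the same gene was at 0.512 to 3.05 and in choroid plexus-like cells at 6.70 to 31.2. The gene was singled out after its values were seen, and the difference between surgeries in microglia-like cells was not tested.

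The unnamed low-UMI cluster, led by Fam183b, Tmem212 and Ccdc153, had a summed member level of 3309 CPM, between the ependymal-like and choroid plexus-like means. The summed level of its hemoglobin genes was 0 to 154 CPM in the 4 WT libraries that held any of its cells, 3 to 74 cells each, and 30320 to 134735 CPM in the 6 Lrg1-/- libraries. It held 3.14% of the cells of MCAO/R + Lrg1-/- replicate 5 and at most 0.622% of those of any other library.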
